A study of Mus musculus with 29 samples.

Results

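Oxidative phosphorylation, the last stage of respiration in the inner mitochondrial membrane, was followed here through the transcripts of its subunits in mesenchymal cells around the mouse common bile duct. Members were taken by gene symbol: the numbered NADH dehydrogenase subunit genes Ndufa, Ndufb, Ndufc, Ndufs and Ndufv with Ndufab1, the succinate dehydrogenase genes Sdha to Sdhd, all symbols starting with Uqcr or Atp5, a fixed set of cytochrome c oxidase genes, and the protein-coding genes of the mitochondrial DNA. The rule found 92 of 55401 entries in the count tables, after 8 entries named as pseudogenes were left out. These hold 91 symbols, because Atp5o appears in 2 entries, of which the second had no count in any library and was not tested. By place of coding, 79 entries are nuclear, on 19 chromosomes, and 13 are mitochondrial. By complex, 43 belong to complex I, 4 to complex II, 9 to complex III, 16 to complex IV and 20 to complex V, with Ndufa4 counted as a complex IV subunit. The remaining 91 entries were tested in every comparison.

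The series holds 29 bulk RNA-seq libraries in 9 groups, each made from about 1000 mesenchymal cells sorted by flow cytometry from the common bile duct of an individual mouse. In one set, cells came from mice with a tamoxifen-inducible Cre under Gli1 (Gli1:CreERT2) and a Cre-activated tdTomato reporter at Rosa26, either uninjured (3 libraries) or at day 4 after bile duct ligation, which blocks bile flow (3 libraries). No sham-operated group is among the samples. The other set used Pdgfra:CreERT2 with the same reporter, so every group including the controls carries the Cre and the reporter, and any recombination is limited to cells in which Pdgfra drives Cre. Its groups were wild type (5 libraries), SmoFF (4; floxed Smoothened, the transducer of Hedgehog signals), SmoM2 (3; an activated Smoothened), Ctnnb1FF (3; floxed β-catenin), Gli2FF (2), Gli3FF (2) and Gli2FFGli3FF (4), the last 3 carrying floxed alleles of the Hedgehog transcription factors Gli2 and Gli3. Ages and sexes are not stated in the labels. The wild type library with number 5 has a description that names SmoFF, against its title and genotype, and was kept as wild type.

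In textbook terms, complex I takes electrons from NADH and complex II from succinate, complex III passes them to cytochrome c, complex IV hands them to oxygen, and complex V (ATP synthase) uses the resulting proton gradient to make ATP. Complex II is coded entirely in the nucleus, whereas the other complexes combine nuclear subunits, translated in the cytosol and imported, with subunits coded in the mitochondrial DNA and translated on mitochondrial ribosomes. NRF1, GABP and YY1 are nuclear factors known to bind promoters of many nuclear subunit genes.

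The 4 promoters below are shown because their genes carried contrasting responses: a complex II catalytic subunit without a called change (Sdha), its membrane anchor with called increases (Sdhd), a complex I subunit called in the SmoFF libraries (Ndufs5), and a complex IV subunit called after ligation (Cox6a1). They were chosen after the values had been seen, among genes with an NRF1 motif. Each runs 5′ to 3′ on the minus strand of GRCm38.p6, from 250 bases before the RefSeq start up to the RefSeq or GENCODE start, whichever comes first, and capitals mark matches to the NRF1 motif (GCGCA, any base, then GCGC).
Sdha, chr13:74350281-74350490: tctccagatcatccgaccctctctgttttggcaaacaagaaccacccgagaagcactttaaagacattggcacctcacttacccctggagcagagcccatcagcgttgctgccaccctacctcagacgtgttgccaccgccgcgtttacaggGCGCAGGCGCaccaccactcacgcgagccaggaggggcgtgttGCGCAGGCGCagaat
Sdhd, chr9:50603850-50604099: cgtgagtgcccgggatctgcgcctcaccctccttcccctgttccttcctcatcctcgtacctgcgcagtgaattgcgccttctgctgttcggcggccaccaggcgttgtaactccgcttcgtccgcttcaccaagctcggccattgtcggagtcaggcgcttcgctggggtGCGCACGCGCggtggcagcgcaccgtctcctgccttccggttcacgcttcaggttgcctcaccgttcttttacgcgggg
Ndufs5, chr4:123718203-123718436: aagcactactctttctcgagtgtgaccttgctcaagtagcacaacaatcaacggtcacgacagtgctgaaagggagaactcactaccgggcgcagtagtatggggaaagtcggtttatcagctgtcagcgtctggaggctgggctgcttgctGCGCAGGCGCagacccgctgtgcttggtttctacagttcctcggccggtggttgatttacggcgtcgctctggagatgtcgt
Cox6a1, chr5:115348982-115349208: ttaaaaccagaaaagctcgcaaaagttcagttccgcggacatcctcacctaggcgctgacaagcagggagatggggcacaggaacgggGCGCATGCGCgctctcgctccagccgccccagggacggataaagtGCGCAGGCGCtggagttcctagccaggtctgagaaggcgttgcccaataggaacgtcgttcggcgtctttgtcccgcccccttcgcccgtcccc

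Promoter windows of 66 nuclear members were found in the RefSeq table, each with 250 bases before and 50 after the start. On either strand, NRF1 letters were present in 17 of the 66 (25.8%), against 5.19% of the 27025 windows of all genes. The GABP letters CCGGAAG were also present in 17 members (25.8%), against 9.93% of all windows, and the YY1 letters AAGATGGCG in 7 members (10.6%), against 1.64%. A match describes letters in a window and is not evidence of binding. The shares of members called higher, taken from the comparisons below, were similar with and without the NRF1 letters: in Ctnnb1FF, 15 of 17 with them and 44 of 49 without were called higher, and in Gli2FFGli3FF 13 of 17 and 35 of 49. After ligation the counts were 3 of 17 and 8 of 49.

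Before any comparison, transcript levels differed greatly between mitochondrial and nuclear members. On the scale of CPM per kb (CPM, counts scaled to library size by edgeR, divided by transcript length), the 13 mitochondrial members had a median of 1399 in wild type cells and the 78 nuclear members one of 78.1. The highest wild type level was that of mt-Co3, a core subunit of complex IV, at 5199 ± 745 CPM per kb (SD, n = 5). Cox4i1, the nuclear subunit that takes part in regulating complex IV, had the highest nuclear level at 528 ± 84.6 CPM per kb and ranked 13th among all members. Uninjured Gli1 cells had a median of 2616 CPM per kb over mitochondrial and 127 over nuclear members. Their highest level was that of mt-Atp6, a proton channel subunit of ATP synthase, at 6741 ± 1649 CPM per kb (SD, n = 3), with mt-Co3 ranked 7th at 2616 ± 579. The 2 sets were scaled in separate fits and their order was not compared by a test. The lowest member was Cox7a1, the muscle and brown fat form of a complex IV subunit, which had at most 2.61 CPM in any library and no count in the 3 Ctnnb1FF libraries.

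As a share of counts outside the ribosomal RNA locus (CT010467.1), nuclear members took 0.817 ± 0.0618% in wild type (SD, n = 5) and much the same in SmoFF at 0.805 ± 0.222% (n = 4), SmoM2 at 0.769 ± 0.131% (n = 3) and Gli2FF at 0.801 ± 0.047% (n = 2). Higher nuclear shares were found in Ctnnb1FF (1.72 ± 0.217%, n = 3), Gli2FFGli3FF (1.44 ± 0.0998%, n = 4) and Gli3FF (1.04 ± 0.169%, n = 2). In the Gli1 cells the nuclear share was 1.08 ± 0.146% uninjured and 1.45 ± 0.0762% after ligation (n = 3 each). Mitochondrial members took 3.02 ± 0.598% in wild type, 3.77 ± 0.332% in Ctnnb1FF and 3.82 ± 0.502% in Gli2FFGli3FF. With that locus kept in the total, the order of the last turned, at 2.10% in Gli2FFGli3FF against 2.37% in wild type (2.62% in Ctnnb1FF). Outside the locus, the mitochondrial share was 2.92 ± 0.556% in uninjured and 2.56 ± 0.275% in ligated Gli1 cells. Mitochondrial counts per nuclear member count were thus 3.67 ± 0.495 in wild type but 2.20 ± 0.144 in Ctnnb1FF, and 2.70 ± 0.182 in uninjured but 1.77 ± 0.274 in ligated Gli1 cells. These are bulk samples of sorted cells, in which fewer cells of a type and less RNA per cell cannot be told apart.

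**Figure D1:**
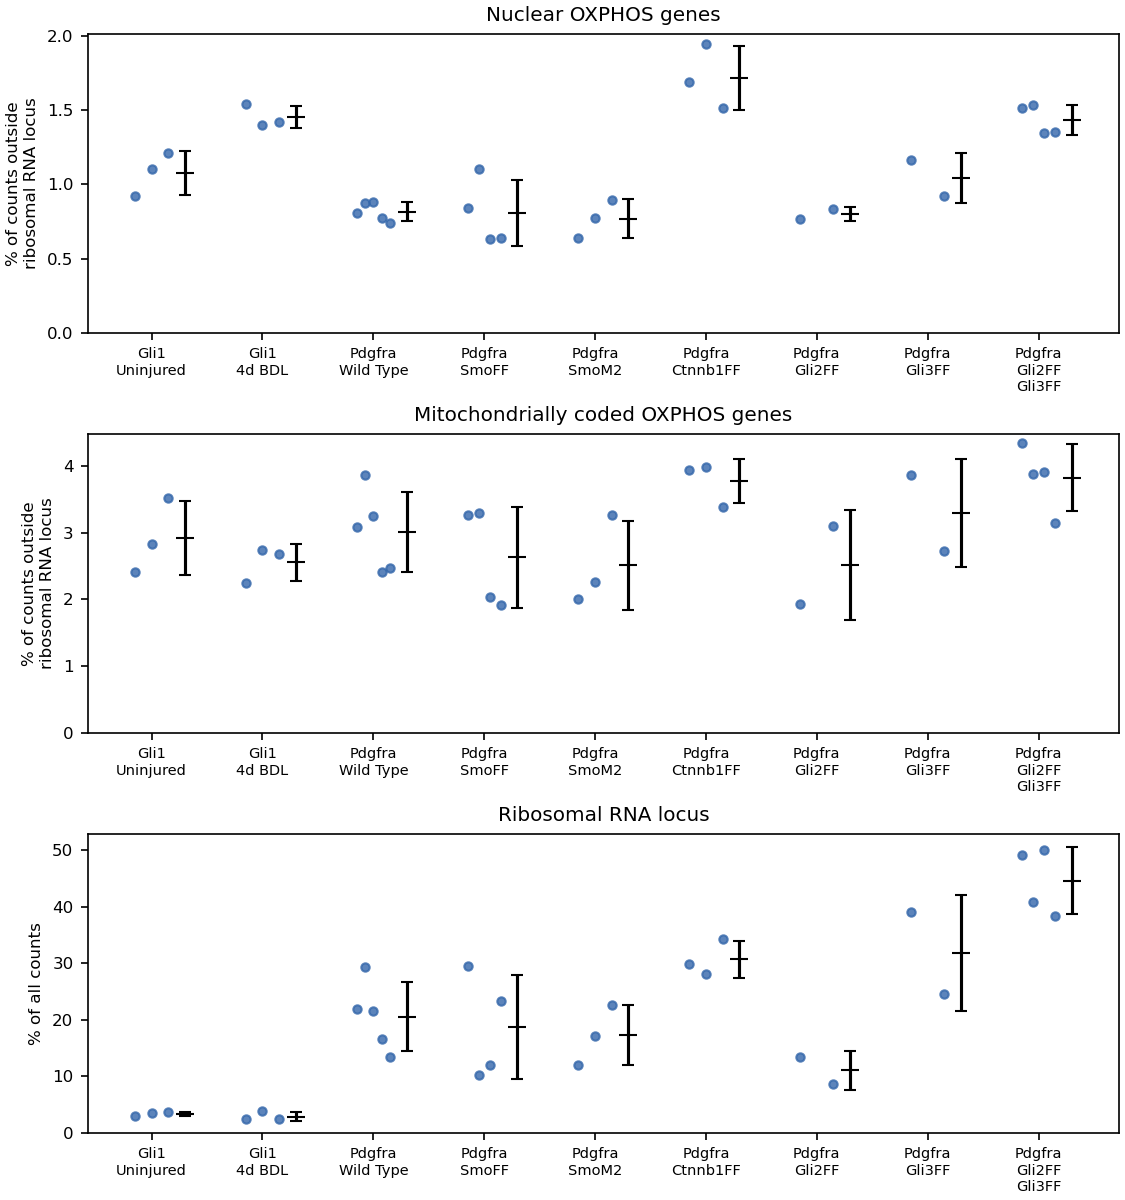
Percent of counts (y axes) per library in the 9 groups (x axis): nuclear members (top) and mitochondrial members (middle), outside the ribosomal RNA locus, and the ribosomal RNA locus itself as percent of all counts (bottom), with points for libraries and black bars for mean and SD. The nuclear share is highest in Ctnnb1FF (1.72%), in ligated Gli1 cells (1.45%) and in Gli2FFGli3FF (1.44%), and the ribosomal RNA share is highest in Gli2FFGli3FF (38.4 to 50%).

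Total counts were 19100111 to 26219602 per Gli1 library and 15021796 to 38301189 per Pdgfra library. Genes with a count numbered 21127 to 24483 in wild type and 15892 to 17726 in Ctnnb1FF. They numbered 17508 to 20055 in Gli2FFGli3FF, 17544 to 22143 in Gli3FF and 25279 to 28028 in Gli2FF. SmoFF libraries held 20583 to 22957 and SmoM2 libraries 21965 to 28796. Uninjured Gli1 libraries held 17121 to 20753 and ligated ones 23482 to 24964. The part of these differences in the OXPHOS values was not tested. The ribosomal RNA locus took 2.37 to 3.87% of all counts in the Gli1 set, 13.4 to 29.4% in wild type, 28 to 34.4% in Ctnnb1FF, 24.5 to 39.1% in Gli3FF, 38.4 to 50% in Gli2FFGli3FF and 8.56 to 13.5% in Gli2FF. Of the targeted genes, Smo was called lower in SmoFF, Gli3 in Gli3FF and Gli2FFGli3FF, and Gli2 in Gli2FFGli3FF but not in Gli2FF. Wild type library 5, whose description names SmoFF, had 28.7 CPM of Smo. The other wild type libraries had 22.6 to 36.2 CPM and the SmoFF libraries 6.81 to 9.05 CPM. Ctnnb1 was not called in Ctnnb1FF (38 to 47.9 against 53.2 to 64.2 CPM, edgeR adjusted p = 0.108). Gli3 was also called lower in Ctnnb1FF, at 8.35 to 16.2 against 30.7 to 44.9 CPM in wild type, and Smo and Ctnnb1 were called higher in Gli2FFGli3FF. A count over the whole gene does not measure loss of the floxed exons alone. The 9 fibroblast markers summed to between 20260 and 74420 CPM in every library. The 8 markers of striated muscle and brown fat, tissues rich in mitochondria, summed to 6.86 to 12.5 CPM in Ctnnb1FF and 3.54 to 8.44 CPM in Gli3FF, both above the 0 to 1.51 CPM of wild type. Of these, Myh6, Myh7, Ucp1, Cidea and Cox6a2 were at 0 in Ctnnb1FF, and the 3 tested (Tnnt2, Ckm and Cox8b) were not called in either genotype. The part of these markers in the OXPHOS values was not tested.

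After bile duct ligation, subunits of complexes III, IV and V rose in the Gli1 cells, and 1 complex IV factor fell. With edgeR's quasi-likelihood test and a Benjamini-Hochberg adjusted p under 0.05 as the call, 15 members were higher and 1 was lower at day 4. Over all 17150 genes tested, 7.77% were called higher and 5.8% lower (13.6% in either direction). The calls were 3 of 43 in complex I, 0 of 4 in complex II, 2 of 9 in complex III, 5 higher and 1 lower of 16 in complex IV, and 5 of 19 in complex V. The median log2 change was 0.40 over members and 0.07 over all genes tested. Nuclear members had a median of 0.46 and mitochondrial members one of −0.24.

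Uqcrq, a small subunit of complex III, had 76.6, 106 and 108 CPM in uninjured and 364, 235 and 243 CPM in ligated cells. Every ligated library lay above every uninjured one. The log2 change was 1.54 (SE 0.25, adjusted p = 0.014 by edgeR). Cox5a, a nuclear complex IV subunit, had 29, 44.5 and 67.4 CPM uninjured and 135, 133 and 154 CPM ligated, with no overlap, and rose by a log2 change of 1.58 (SE 0.31, edgeR adjusted p = 0.0242). Cox7a2l (chr17:83501918-83517330), known for joining complexes III and IV into supercomplexes, went the other way. Its levels were 204, 311 and 341 CPM uninjured and 163, 148 and 138 CPM ligated. The groups did not overlap, and the change was −0.93 (SE 0.22, edgeR adjusted p = 0.0403).

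Among ATP synthase subunits, Atp5k, a membrane subunit involved in dimers of the enzyme, rose from 104, 93.2 and 106 CPM to 198, 190 and 191 CPM. These groups were tightly clustered and apart, with a log2 change of 0.94 (SE 0.14, edgeR adjusted p = 0.0117). Atp5md and Atp5mpl, small membrane subunits, rose by 1.12 (SE 0.22) and 0.93 (SE 0.18) with edgeR adjusted p = 0.0233 and 0.023, and Atp5g1, one of the genes for the rotating c subunit, by 0.93 (SE 0.21, adjusted p = 0.0335). The complex I subunit Ndufc2 rose by 1.06 (SE 0.27, edgeR adjusted p = 0.0476) and the complex IV subunit Cox7a2 by 0.83 (SE 0.19, adjusted p = 0.032). Cox6a1, whose promoter is printed above, was also called higher, and is named here after its values were seen.

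A single mitochondrial member was called after ligation. The gene mt-Nd6 (chrM:13552-14070), the complex I subunit coded on the strand opposite to the other members, had 237, 269 and 261 CPM uninjured and 447, 566 and 427 CPM ligated, without overlap (log2 change 0.91, SE 0.17, edgeR adjusted p = 0.021). It overlaps the end of mt-Nd5 on the other strand, and since use of strand in counting is not given in the sources used here, reads of the pair cannot be separated with certainty. The mt-Co3 levels overlapped, at 1558, 2142 and 2453 CPM uninjured and 1719, 2125 and 1865 CPM ligated.

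The ligation calls depended on single libraries: no member was called without ligated library 2 or without ligated library 3, 2 were called without ligated library 1 and 6 without uninjured library 2. Cell type markers moved with the same comparison. Smooth muscle markers summed to 4608 to 5509 CPM after ligation against 113.5 to 159.6 CPM (4 of 8 called higher, 0 lower), and mesothelial markers to 46.6 to 68.3 against 290.9 to 872.4 CPM (7 of 8 called lower). Fibroblast markers summed to 71200 to 74420 against 36090 to 43110 CPM, with 5 of 9 called higher and 2 lower. Endothelial markers summed to 3.61 to 14.9 CPM after ligation against 118.4 to 160.7 CPM (1 of 5 tested called higher and 1 lower). Glia and nerve markers summed to 224.5 to 303.8 against 56.2 to 128.6 CPM (1 of 2 tested called higher and 1 lower), and immune markers to 33.7 to 84.7 against 8.74 to 24.7 CPM (1 of 6 called higher). The part of all these in the OXPHOS result was not tested.

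**Figure D2:**
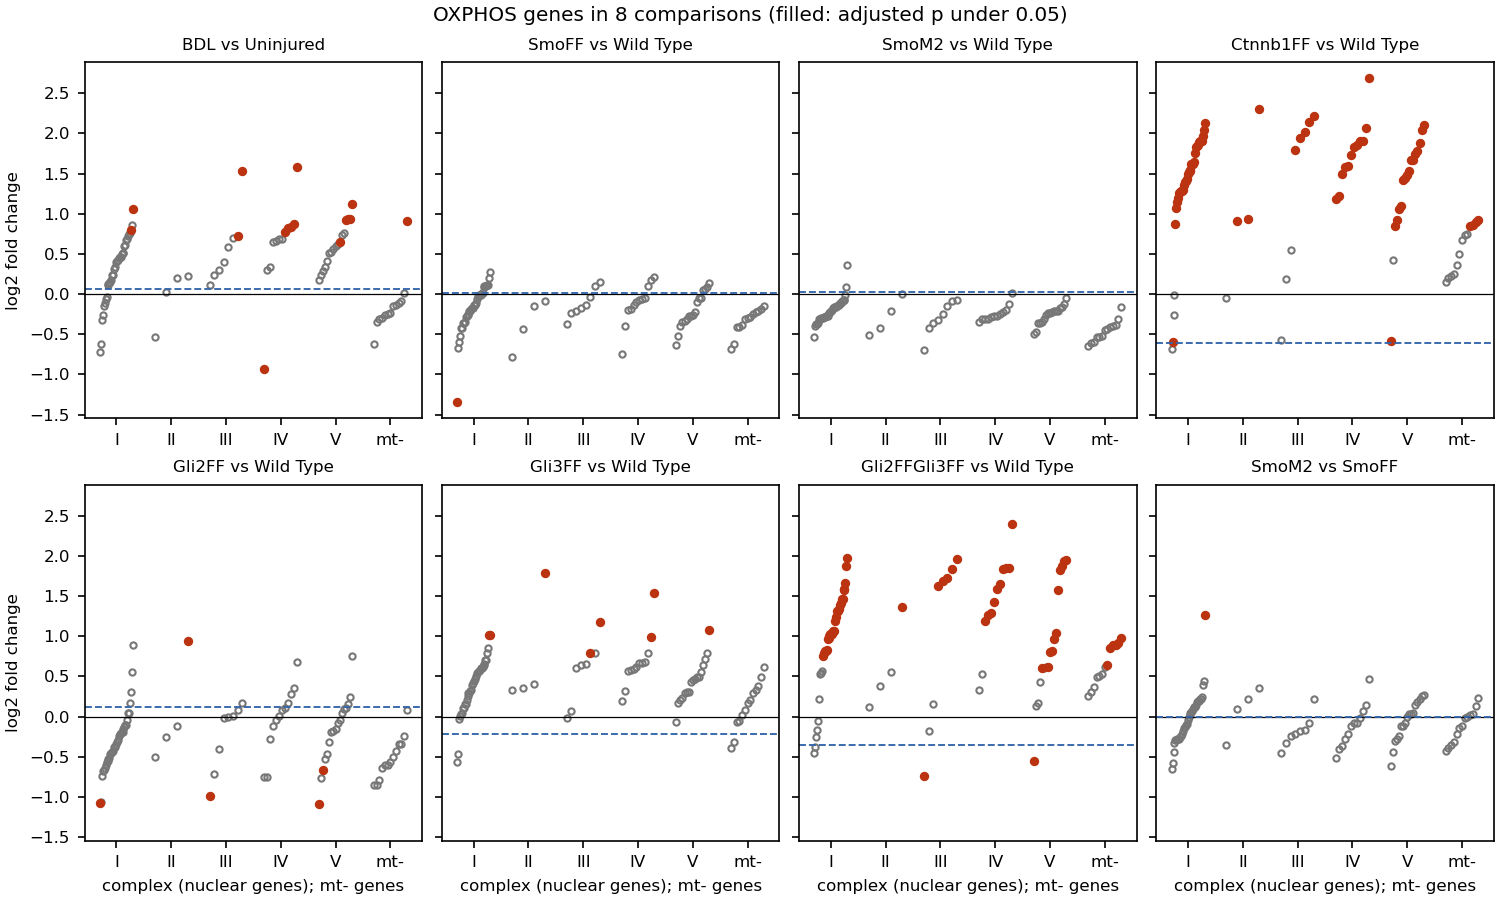
Log2 fold change (y axis) of each tested OXPHOS member (points), by complex for nuclear genes and together for mitochondrial genes (x axis), in the 8 comparisons (panels), with filled red points for members called by edgeR and a dashed line at the median of all genes tested. Cox7a1 is left out as close to 0 counts, and in Ctnnb1FF and Gli2FFGli3FF most members lie above the dashed line in every complex.

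In Ctnnb1FF cells most nuclear subunits were higher than in wild type, in all 5 complexes. There were 71 members called higher and 2 lower by edgeR, where 8.04% of the 24383 genes tested were called higher and 11.9% lower (19.9% in either direction). By complex, 32 of 43 were higher and 1 lower in complex I, 3 of 4 were higher in complex II, 5 of 9 in complex III, 15 of 16 in complex IV, and 16 of 19 were higher and 1 lower in complex V. Nuclear members accounted for 67 of the higher calls, with a median log2 change of 1.53, and mitochondrial members for 4 of 13, with a median of 0.68. Over all genes tested the median was −0.61. When scaling factors were computed without the ribosomal RNA locus and mitochondrial entries this median moved to −0.47 and the members' calls to 73 higher and 0 lower, so the 2 lower calls hold only relative to the main scaling. All 6 genotype comparisons share the same wild type libraries.

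Cox6c (chr15:35925886-35938246), a small nuclear subunit of complex IV, had 82.3, 91.7, 96, 77.4 and 68.3 CPM in wild type and 541, 621 and 442 CPM in Ctnnb1FF. Every Ctnnb1FF library exceeded the highest wild type library by a wide margin. The log2 change was 2.68 (SE 0.25, edgeR adjusted p = 3.52e-07). Cox4i1 rose less, from 301 to 443 CPM over the wild type libraries to 798, 1031 and 862 CPM, again without overlap. In complex III, Uqcr10 had 56.4, 75.6, 58.1, 50.7 and 41.2 CPM in wild type and 244, 353 and 192 CPM in Ctnnb1FF (log2 change 2.22, SE 0.29, edgeR adjusted p = 1.38e-05). The groups were separate, and the complex III subunits Uqcrb (2.14, SE 0.28) and Uqcrh (1.94) were called higher as well. Uqcrc1, one of the large core proteins of the same complex, picked out after its values were seen, was not called: it had 80.3, 57.6 and 63.7 CPM against 87.8 to 116 CPM in wild type.

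Complex II showed a contrast between its subunits. Sdhd (chr9:50596357-50603812), a membrane anchor of succinate dehydrogenase, had 35.4, 33.3, 47.8, 31 and 23.8 CPM in wild type and 164, 182 and 161 CPM in Ctnnb1FF. The Ctnnb1FF libraries lay close together and well above all 5 controls, with a log2 change of 2.30 (SE 0.25, edgeR adjusted p = 1.67e-06). Sdha (chr13:74322254-74350280), the flavoprotein that oxidises succinate, had 105, 96.4, 102, 82.6 and 81.5 CPM in wild type and 106, 84.3 and 81 CPM in Ctnnb1FF. These groups overlapped throughout and Sdha was not called (log2 change −0.05). Its sign depended on the scaling and on the libraries used.

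For complexes I and V, Ndufb3, an accessory subunit of the membrane arm, rose by a log2 change of 2.13 (SE 0.26, edgeR adjusted p = 5.63e-06), from 36 to 59.5 CPM over wild type to 179, 238 and 184 CPM. The ATP synthase membrane subunits Atp5j2 (2.11, SE 0.25, edgeR adjusted p = 4.44e-06) and Atp5k (2.05) rose by similar amounts. Atp5k was at 35.4 to 39.9 CPM in the 5 wild type libraries and at 142, 192 and 125 CPM in Ctnnb1FF. The catalytic β subunit Atp5b was called higher too, at 475, 718 and 494 against 260 to 335 CPM. By contrast Atp5a1, the α subunit of the catalytic head of complex V, was at 143, 184 and 150 CPM against 239, 215, 245, 231 and 258 CPM in wild type. All 3 Ctnnb1FF libraries were below every control, and the gene was called lower, at −0.58 (SE 0.16, edgeR adjusted p = 0.0156). The call was lost without Ctnnb1FF library 1 or 3.

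Between 69 and 77 members were called when any one library was left out of this comparison. Mesothelial markers summed to 22.2 to 147.6 CPM in Ctnnb1FF against 133.3 to 363 CPM in wild type (3 of 8 called lower), and smooth muscle markers to 91.3 to 306.5 against 82.7 to 115.1 CPM (3 of 8 called higher and 2 lower). Whether these bear on the OXPHOS values was not tested.

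**Figure D3:**
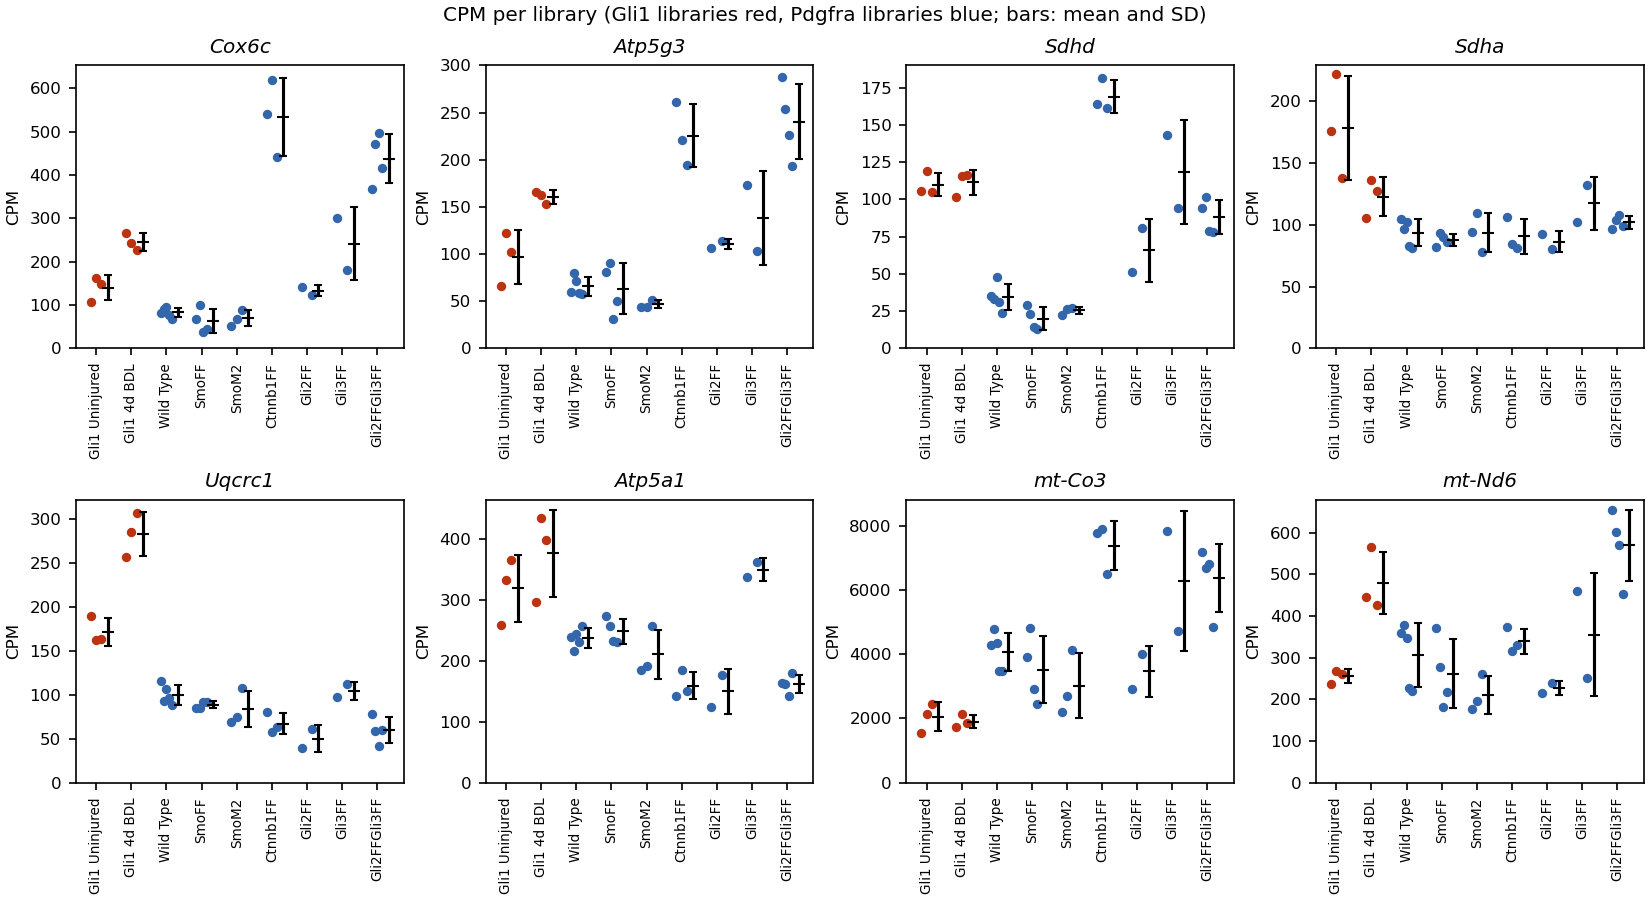
CPM (linear y axes) of 8 OXPHOS members (panels) in each library (points, red for Gli1 and blue for Pdgfra) of the 9 groups (x axis), with black bars for mean and SD. Cox6c and Sdhd are high in Ctnnb1FF, Gli3FF and Gli2FFGli3FF relative to wild type, whereas Sdha lies between 81 and 106 CPM in Ctnnb1FF and between 81.5 and 105 CPM in wild type.

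With both floxed Gli genes, most nuclear members were again higher than in the same wild type controls. In Gli2FFGli3FF, 60 members were called higher and 2 lower by edgeR, where 7.6% of genes tested were called higher and 9.56% lower (17.2% in either direction). The calls were 28 of 43 in complex I, 1 of 4 in complex II, 5 higher and 1 lower of 9 in complex III, 13 of 16 in complex IV, and 13 higher and 1 lower of 19 in complex V. Nuclear members (54 higher, 2 lower) had a median log2 change of 1.04 and mitochondrial members (6 higher) one of 0.62, against −0.35 over all genes tested. With the ribosomal RNA share of each library as a covariate, a setting chosen after the data were seen, 11 members were called, all higher. The share was 38.4 to 50% in the Gli2FFGli3FF libraries and 13.4 to 29.4% in wild type, without overlap.

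Cox6c had 368, 471, 496 and 417 CPM in Gli2FFGli3FF, all above the 5 wild type values given earlier, and rose by a log2 change of 2.40 (SE 0.24, edgeR adjusted p = 4.72e-07). Atp5g3 (chr2:73908447-73911326), another gene for the c subunit of ATP synthase, had 60.3, 79.8, 71.7, 58.7 and 57.8 CPM in wild type and 287, 254, 227 and 194 CPM in Gli2FFGli3FF. The 2 groups were far apart, and the change was 1.87 (SE 0.24, edgeR adjusted p = 9.82e-06). Ndufb3 (1.97), Uqcr10 (1.96), Atp5j2 (1.95), Atp5k (1.94), Ndufc1 (1.87), Ndufa4 (1.85) and Cox7a2 (1.84) followed. With the ribosomal RNA share as covariate, Uqcr10 was the one of these whose adjusted p, 0.0745, passed 0.05. Sdha was again not called, with 96.9, 104, 108 and 98.7 CPM. The Gli2FFGli3FF change was also set against the Gli2FF and Gli3FF changes added together, a contrast added after the data were seen. There edgeR called 1 member, Ndufa13, against 3.26% of all genes tested in either direction. The median difference was 0.86 on the log2 scale over the members tested and −0.05 over all genes tested. With 2 libraries each in Gli2FF and Gli3FF, the few calls do not show that the changes add up.

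The 2 members called lower were large subunits. Uqcrc1 (chr9:108936633-108949623) had 116, 92.5, 106, 96.1 and 87.8 CPM in wild type and 77.7, 59, 41.6 and 59.7 CPM in Gli2FFGli3FF, with all 4 below the wild type range. It fell by 0.74 on the log2 scale (SE 0.19, edgeR adjusted p = 0.00971), and was not called without Gli2FFGli3FF library 3. Atp5a1 had 164, 163, 143 and 180 CPM and fell by 0.55 (SE 0.15, edgeR adjusted p = 0.0134), a call lost without Gli2FFGli3FF library 1, 2 or 3. Smooth muscle markers summed to 205.7 to 447.2 CPM in Gli2FFGli3FF against 82.7 to 115.1 CPM in wild type, with 3 of 8 called higher. Endothelial markers summed to 14.2 to 32 against 56.2 to 88.9 CPM (1 of 6 tested called lower). Glia and nerve markers summed to 63 to 138.1 against 29.6 to 40.4 CPM (1 of 3 tested called higher). Fibroblast markers overlapped, at 26200 to 34320 against 28560 to 39780 CPM, with 2 of 9 called lower. The part of these markers was not tested.

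Of the mitochondrial members, the complex IV genes mt-Co1, mt-Co2 and mt-Co3 and the complex V gene mt-Atp8 were called higher in Ctnnb1FF. In Gli2FFGli3FF the 6 called were mt-Co1, mt-Co2, mt-Co3, mt-Atp8, mt-Atp6 and mt-Nd6. Apart from mt-Co3 and mt-Atp6, these are listed after their values were seen. The mt-Co3 levels (chrM:8607-9390) were 4274, 4799, 4357, 3486 and 3464 CPM in wild type, 7761, 7891 and 6489 CPM in Ctnnb1FF and 7194, 6698, 6808 and 4833 CPM in Gli2FFGli3FF. Both genotypes lay above all wild type libraries, with the fourth Gli2FFGli3FF library close to the highest control. Its changes were 0.86 (SE 0.23, edgeR adjusted p = 0.0111) and 0.65 (SE 0.21, adjusted p = 0.0402). In Gli2FFGli3FF the mt-Co3 call was lost without any one of Gli2FFGli3FF libraries 1 to 3 or wild type libraries 1, 3, 4 or 5. The 7 mitochondrial complex I genes had edgeR adjusted p of 0.0822 (mt-Nd4l) to 0.678 (mt-Nd6) in Ctnnb1FF. The ribosomal RNAs of the mitochondrion, which are not members, were called higher in both: mt-Rnr1 by 2.56 and 3.22 and mt-Rnr2 by 1.25 and 1.68 on the log2 scale.

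Reads of 6 mitochondrial members can also be assigned to near-identical nuclear copies on chromosome 1. Copies of mt-Atp6, mt-Co3, mt-Nd4 and mt-Co2 (Gm10925, Gm28437, Gm28439 and Gm28661) were 100% identical over their alignment, that of mt-Co1 (Gm29216) 99.8% and that of mt-Nd3 (Gm28438) 99.7%. The entry of the mt-Co2 copy held 16.4 to 17.2% of the counts of the pair in wild type, 21.2 to 23.1% in Ctnnb1FF and 26.2 to 27% in Gli2FFGli3FF. For mt-Co3 the copy held 12.9 to 15.1% in wild type and 20 to 28.5% in Gli2FFGli3FF. The division was therefore not constant between groups, and levels of these members are uncertain to that extent. Overlaps within the mitochondrial DNA, of mt-Atp8 with mt-Atp6 and of mt-Nd4l with mt-Nd4, leave the same doubt for those pairs.

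**Figure D4:**
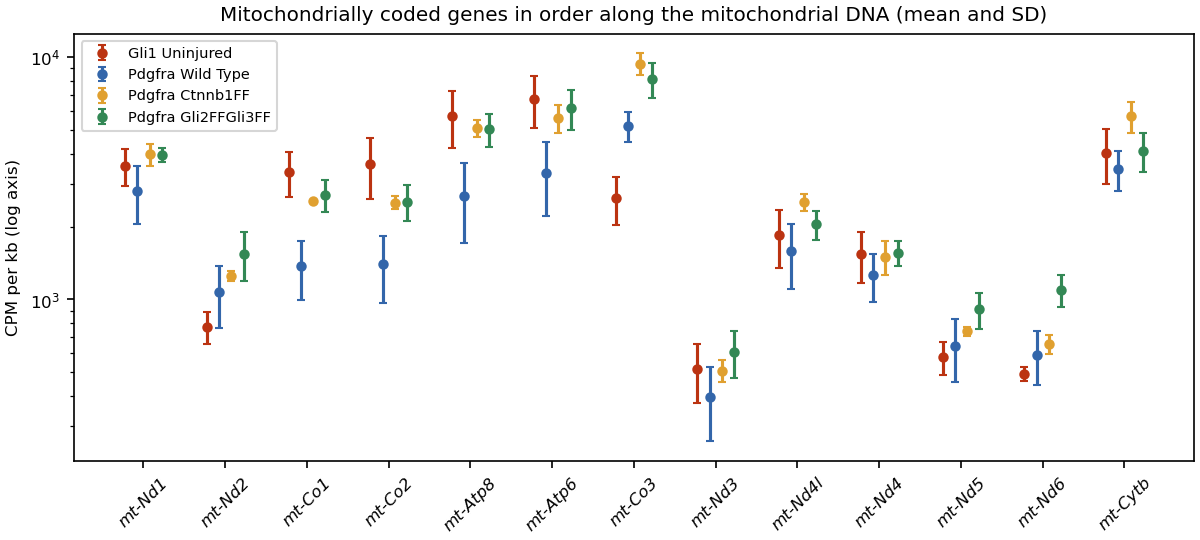
Level in CPM per kb (log y axis) of the 13 mitochondrial members, in order along the mitochondrial DNA (x axis), as mean and SD over libraries in uninjured Gli1 cells, wild type, Ctnnb1FF and Gli2FFGli3FF (colours). The highest mean is that of mt-Co3 in the 3 Pdgfra groups (5199, 9414 and 8142 CPM per kb) and of mt-Atp6 in the Gli1 cells (6741 CPM per kb).

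Single floxed Gli alleles, with 2 libraries each, gave fewer calls. In Gli3FF 8 members were called higher and 0 lower by edgeR, where 2.09% of genes tested were called higher and 2.36% lower (4.45% in either direction). The members' median log2 change was 0.45, against −0.22 over all genes tested. Sdhd had 143 and 94 CPM, both above all 5 wild type libraries, and rose by 1.79 (SE 0.27, edgeR adjusted p = 0.000326). Cox6c had 301 and 182 CPM and rose by 1.54 (SE 0.27, edgeR adjusted p = 0.00142), and Uqcrh, the hinge protein of complex III, had 325 and 162 CPM against 96.5 to 122 CPM (1.18, SE 0.24, adjusted p = 0.00447). The remaining calls were Atp5g3 (1.08), Ndufb3 (1.02), the acyl carrier protein Ndufab1 (1.02), Cox7a2 (0.99) and the Rieske iron-sulfur protein Uqcrfs1 (0.79).

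Gli3FF library 1 had the higher value for Sdhd, Cox6c and Uqcrh, and only 1 member was called without it. Leaving out wild type library 1, 2, 4 or 5 left 3, 5, 4 and 3 calls, and the ribosomal RNA share as covariate left 3. Mesothelial markers summed to 38.3 to 50 CPM in Gli3FF against 133.3 to 363 CPM in wild type (3 of 8 called lower). Cholangiocyte markers summed to 7.57 to 23.1 against 56 to 90.5 CPM (2 of 11 called lower). Smooth muscle markers summed to 210.2 to 243.5 against 82.7 to 115.1 CPM (1 of 8 called higher). Endothelial markers summed to 1.11 to 3.71 against 56.2 to 88.9 CPM in wild type (2 of 6 tested called lower). Pecam1, Cdh5, Kdr, Emcn and Cldn5 were at 0 in Gli3FF, but Cdh5, Emcn and Cldn5 were at 0 in wild type as well. Fibroblast markers summed to 44580 to 52380 against 28560 to 39780 CPM in wild type (3 of 9 called higher). The part of these markers was not tested.

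In Gli2FF, 1 member was called higher and 4 lower by edgeR, where 2.58% of genes tested were called higher and 3.25% lower (5.83% in either direction). Members had a median log2 change of −0.24 and all genes tested one of 0.12. Sdhd, with 51 and 80.9 CPM, lay above all wild type libraries and was the member called higher (0.95, SE 0.28, edgeR adjusted p = 0.0478). Atp5d, the δ subunit of the ATP synthase stalk, had 58.6 and 68.9 CPM in Gli2FF and 141, 158, 161, 116 and 104 CPM in wild type. Both libraries were below every control, and the change was −1.09 (SE 0.22, edgeR adjusted p = 0.00432). Ndufa10, an accessory subunit of complex I, had 24.3 and 33.9 CPM against 52.5 to 72.5 CPM (−1.07, SE 0.28, edgeR adjusted p = 0.0239). Uqcrc1 (−0.99, SE 0.25, adjusted p = 0.0188) and Atp5a1 (−0.66, SE 0.19, adjusted p = 0.0405) were the others called lower by edgeR. No member was called without Gli2FF library 1, 3 were called without Gli2FF library 2 or wild type library 1, and 2 without wild type library 2. Fibroblast markers summed to 23250 to 23730 CPM in Gli2FF against 28560 to 39780 CPM in wild type (3 of 9 called lower), and glia and nerve markers to 86.4 to 104.7 against 29.6 to 40.4 CPM (1 of 3 tested called higher). Their part was not tested.

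Few members were called with the Smoothened alleles. In SmoFF 0 members were called higher and 1 lower by edgeR. Of genes tested, 0.287% were called higher and 1.26% lower (1.55% in either direction). At an unadjusted p under 0.05 by edgeR there were 9 members, and the share of all genes at that level was not computed. The members' median log2 change was −0.19, with 71 of 91 negative, against a median of 0.02 over all genes tested. Ndufs5 (chr4:123712710-123718202), an accessory subunit of complex I, had 18.7, 26.9, 25.6, 15.2 and 15.3 CPM in wild type and 9.23, 9.29, 6.41 and 7.08 CPM in SmoFF. All 4 were below the wild type range, and the gene fell by 1.34 on the log2 scale (SE 0.25, edgeR adjusted p = 0.0061). Against wild type libraries 4 and 5 alone the change was −0.93 and not called (adjusted p = 0.667). In SmoM2, Ndufs5 had 14.2, 17.9 and 25.5 CPM, which overlapped the wild type range.

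In SmoM2 against wild type edgeR called 0 members. Of genes tested, 0.127% were called higher and 0.0779% lower (0.205% in either direction). At an unadjusted p under 0.05 by edgeR there were 3 members, and the share of all genes was again not computed. The members' median log2 change was −0.27, with 86 of 91 negative, against a median of 0.02 over all genes tested. DESeq2 called 0 as well, and limma voom with quality weights called 6, all lower. The comparison of SmoM2 with SmoFF called Ndufs5 alone, higher by 1.26 (SE 0.27, edgeR adjusted p = 0.0126), where 1.74% of genes tested were called higher and 0.89% lower (2.63% in either direction). This call was lost without SmoFF library 3 or SmoM2 library 3. Fibroblast markers summed to 20260 to 21890 CPM in SmoFF, against 28560 to 39780 CPM in wild type (4 of 9 called lower) and 33980 to 38590 CPM in SmoM2 (6 of 9 called higher than in SmoFF). Mesothelial markers summed to 507.1 to 1140 CPM in SmoFF, 204.1 to 660.7 CPM in SmoM2 and 133.3 to 363 CPM in wild type, and smooth muscle markers to 310.1 to 323.6 CPM in SmoM2 against 63.6 to 133.9 CPM in SmoFF. The part of these markers was not tested.

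The responses of nuclear members differed with the length of the coding sequence. Among genes whose log2 CPM averaged 5 or more, all 40 members under 150 codons were called higher in Ctnnb1FF, with a median log2 change of 1.83. Of the 375 other genes in that length class, 72.8% were called higher, with a median of 1.25. From 150 to under 300 codons 19 of 21 members were called higher (median 1.20), as were 33.1% of other genes (median 0.34). From 300 to under 600 codons 3 of 9 members were higher and 2 lower, and among other genes 13.1% were higher and 24.1% lower. In Gli2FFGli3FF the counts were 38 of 40 (55.7% of other genes), 11 of 21 (21.3%), and 2 higher and 2 lower of 9 (12.8% and 21.6%). After ligation 13 of 44 members under 150 codons were called higher and 1 lower, against 14.3% and 10.2% of other genes. These classes were chosen after the data were seen.

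Over 77 nuclear members, with Cox7a1 left out, Pearson's r between log2 coding length and log2 change was −0.83 in Ctnnb1FF and −0.78 in Gli2FFGli3FF, as a description across genes measured in the same libraries. After ligation and in Gli2FF it was −0.40, in Gli3FF −0.47, in SmoFF 0.08 and in SmoM2 0.32. Spearman's rho over the members and over the other genes of the length classes was −0.815 and −0.44 in Ctnnb1FF, −0.783 and −0.248 in Gli2FFGli3FF, and −0.549 and −0.275 in Gli3FF. After ligation it was −0.472 over members and −0.042 over other genes, and in Gli2FF −0.521 over members and 0.398, of the opposite sign, over other genes. Among the genes described above, Cox6c codes for 76 residues, Uqcrq for 82 and Sdhd for 159, whereas Uqcrc1 codes for 480 and Sdha for 664. Others went against this order: Atp5b codes for 529 residues and was called higher in Ctnnb1FF, and Cox7a2l codes for 111 and was called lower after ligation. Other short genes moved in the same direction in Ctnnb1FF and Gli2FFGli3FF, so that direction was not particular to OXPHOS members. The share called higher was larger among members than among other genes in both classes under 300 codons. Whether members differ from other genes of equal length was not tested.

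**Figure D5:**
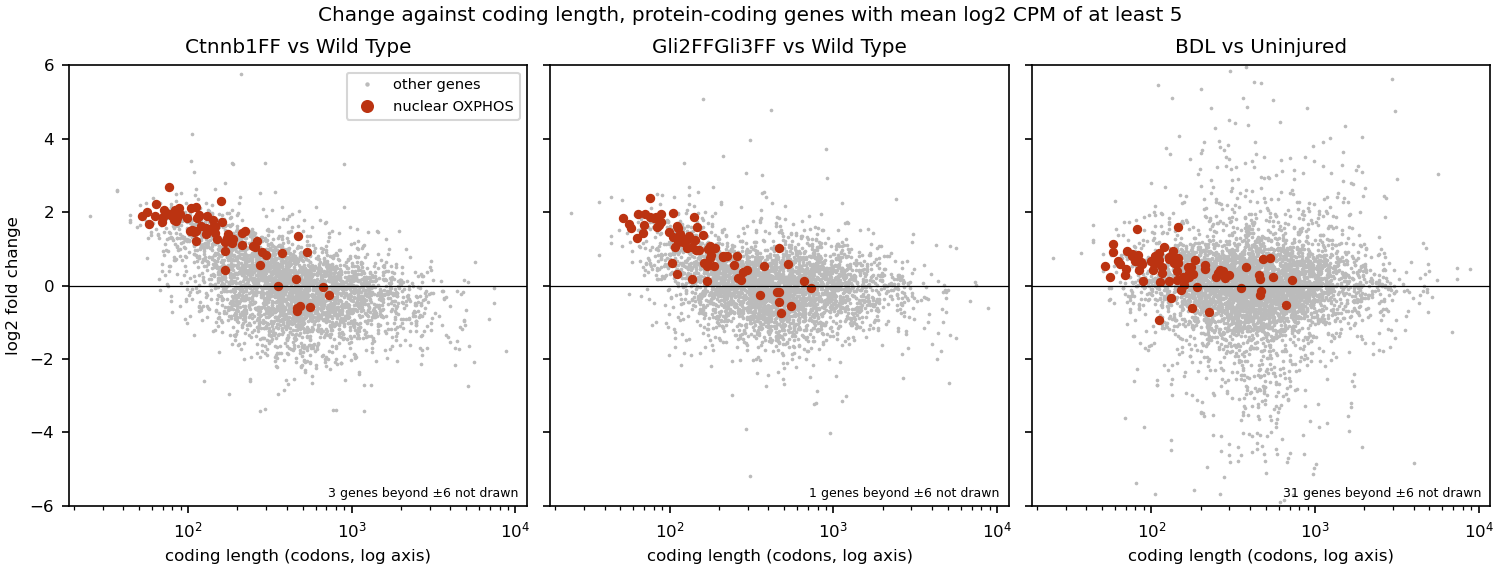
Log2 fold change (y axis) against coding length in codons (log x axis) of nuclear OXPHOS members (red points) and other protein-coding genes (grey points) whose log2 CPM averaged 5 or more, in Ctnnb1FF, Gli2FFGli3FF and after ligation (panels). Members under 150 codons lie highest in the first 2 panels (medians 1.83 and 1.57), where other short genes are shifted upwards too.

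Other mitochondrial genes gave their own counts. Over all genes tested, 7.77% were called higher after ligation, 8.04% in Ctnnb1FF and 7.6% in Gli2FFGli3FF. These shares take no account of coding length. Of the other genes under 150 codons described above, 72.8% were called higher in Ctnnb1FF and 55.7% in Gli2FFGli3FF. From 150 to under 300 codons the shares were 33.1% and 21.3%. Coding lengths of the genes listed below were not compared. Of 77 proteins of the mitochondrial ribosome, which translates the mitochondrial members, 46 were called higher and 2 lower in Ctnnb1FF (median log2 change 1.07), and 33 higher in Gli2FFGli3FF (0.60). After ligation 6 of the 77 were called higher (0.30), a share near that of all genes. Of 42 assembly factors, 16 were called higher and 1 lower in Ctnnb1FF, and 10 higher in Gli2FFGli3FF. After ligation 1 of the 42 was called higher (Cox17, a copper chaperone for complex IV), a smaller share than among all genes. Of 18 genes of the TCA cycle and pyruvate dehydrogenase, which supply the electrons, 3 were called higher in each of these comparisons, after ligation Mdh2 (1.12), Cs (1.00) and Idh3a (0.97).

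Cycs, the cytochrome c that carries electrons from complex III to complex IV, rose after ligation by 1.62 (SE 0.18, edgeR adjusted p = 0.00415) and in Ctnnb1FF by 1.65 (SE 0.27, adjusted p = 0.000152). The ADP/ATP carriers Slc25a5 (1.83) and Slc25a4 (0.69) and the outer membrane channel Vdac1 (0.75) were called higher after ligation. Of 9 genes for mitophagy and dynamics 5 were called lower there, where 5.8% of all genes tested were, among them the mitophagy factors Fundc1 (−1.69), Bnip3 (−1.55) and Pink1 (−1.84) and the fusion protein Mfn2 (−0.84).

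Ucp2 and Ssbp1 are further mitochondrial genes with calls in the SmoFF and Gli2FF comparisons. Ucp2, an uncoupling protein of the inner membrane, was called higher in all 6 genotypes, which share the wild type controls, with log2 changes of 2.98 in SmoFF, 2.09 in SmoM2, 1.38 in Ctnnb1FF, 2.61 in Gli2FF, 3.73 in Gli3FF and 3.96 in Gli2FFGli3FF. Ssbp1, which binds single-stranded mitochondrial DNA, was called lower in SmoFF (−0.87) and higher in Gli2FF (0.83), Ctnnb1FF (1.43) and Gli2FFGli3FF (1.71). SmoM2 exceeded SmoFF in Ssbp1 by 1.07 (SE 0.20, edgeR adjusted p = 0.00441).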

How the data were processed

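Values in the tables the authors deposited are unnormalized counts, 1 table holding the Gli1 libraries and 1 each Pdgfra genotype. RNA was made into full-length cDNA from sorted cells without molecular identifiers, per the labels' protocols, and the submitters' processing notes name mm10. How reads were aligned, counted and assigned to strands is not given in the sources used here. Coordinates are those of GENCODE M21 on GRCm38. Each sample is an individual animal, per the labels, so p-values measure the spread between animals.

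Counts were scaled (TMM), filtered (filterByExpr) and tested with edgeR 4.0.16 (quasi-likelihood) in R 4.3.3, the 6 Gli1 libraries alone and the 23 Pdgfra libraries in a single fit, with Benjamini-Hochberg adjustment over all genes tested and calls at 0.05. The test was checked on simulated counts. Alternatives used limma 3.58.1 and DESeq2 1.42.0. Members, lists, tests and the split of the wild type libraries were chosen with earlier results of these data known. Members named singly were up to 8 called in each direction per comparison by size of change, the member with the highest mean log2 CPM per complex and coding, and the pair Cox7a1 and Cox7a2. Log2 changes were printed, and followed through the alternatives, only for called ones and Sdha. Of other lists, up to 4 called genes with the smallest p were named. One named result is not reported here.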

Additional observations from a re-analysis of the deposited data

Results flagged for a closer look

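In wild type cells Atp5md reached 27.68 CPM in library 2, with the next library at 20.43 CPM, and Uqcrq reached 91.56 CPM in the same library, with the next at 64.99 CPM. Each was far from the other 4 by Dixon's test. Of 108 groups of member values tested, about 5% would be picked by chance, and the 2 are fewer than that.

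The change of Ndufa13, an accessory subunit of complex I, in Gli2FFGli3FF exceeded the sum of its changes in Gli2FF and Gli3FF by 1.69 on the log2 scale (SE 0.40, edgeR adjusted p = 0.0245). Its levels were 110, 127, 116, 104 and 84.5 CPM in wild type, 65.9 and 63.5 CPM in Gli2FF, 127 and 94.9 CPM in Gli3FF and 219, 225, 214 and 197 CPM in Gli2FFGli3FF. It was the 1 member called in this contrast, which was added after the data were seen and called 795 of 24383 genes (3.26%). At an unadjusted p under 0.05 by edgeR there were 39 members. The share of all genes at that level was not computed. The median over members was 0.86, against −0.05 over all genes tested.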

How the results depend on the processing

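In Ctnnb1FF the number of called members, 73 in the main setting, was 64 to 81 over the alternatives run and 69 to 77 with 1 library left out. After ligation the 16 calls became 6 without a filter on low counts, 0 with the replicate block and 28 with DESeq2, and 0 to 14 with 1 library left out. SmoFF had 2 calls without a filter or against wild type libraries 1 to 3, 0 against wild type 4 and 5, and 1 to 2 with 1 library left out. SmoM2 had 6 with limma voom. Gli2FF had 3 with the replicate block, 24 with limma voom, 13 with only the groups compared, 0 against wild type 4 and 5, 2 with the ribosomal RNA covariate, and 0 to 5 with 1 library left out. Gli3FF had 3 with the replicate block, against wild type 1 to 3, against wild type 4 and 5 and with the covariate, and 1 to 6 with 1 library left out. Gli2FFGli3FF had 11 with the covariate and 50 to 61 with 1 library left out. SmoM2 against SmoFF had 0 with limma voom or only the groups compared, and 0 to 1 with 1 library left out. The causes were not tested.

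As a percentage of all counts, ribosomal RNA locus kept, nuclear shares were 0.646 in wild type, 0.632 in SmoM2, 1.19 in Ctnnb1FF, 0.713 in Gli2FF, 0.703 in Gli3FF and 0.795 in Gli2FFGli3FF, and mitochondrial shares 2.37 in wild type, 2.62 in Ctnnb1FF, 2.20 in Gli3FF and 2.10 in Gli2FFGli3FF. Thus the mitochondrial share in Gli2FFGli3FF exceeded that of wild type only with the locus left out.

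Sdha changed sign in Ctnnb1FF: 0.0040 with RLE scaling and with DESeq2, 0.0716 when scaled without ribosomal RNA and mitochondrial entries, 0.0343 with only the groups compared, 0.142 against wild type 4 and 5, and from −0.145 to 0.150 with 1 library left out (above 0 without Ctnnb1FF library 2 or 3). In Gli2FFGli3FF it was −0.0502 against wild type 1 to 3. No called member changed sign in any of 3104 alternative values, whereas 254 of 562 pairs of uncalled member and comparison did so at least once (687 of 9809 values). Called members had been selected for changes large against their SE in these same counts, so a kept sign does not test the calls.

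Deviations from the group mean were correlated between libraries of different groups. Between same-numbered libraries, correlations ran from −0.03 to 0.04 over 3 Gli1 pairs and from −0.56 to 0.32 over 55 Pdgfra pairs (median 0.02). Between libraries with different numbers they ran from −0.04 to 0.05 over 6 Gli1 pairs and from −0.61 to 0.61 over 168 Pdgfra pairs (median 0.004). With so few libraries per group, these values cannot show whether the replicate numbers stand for shared batches. With 2 to 5 libraries a group, the number of animals limits precision.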
